A study of Mus musculus with 18 samples.

Results

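The chemokine ligand genes were followed across 3 settings, MCA205 cells in culture, TC1 cells in culture and subcutaneous TC1 tumours, each compared between the libraries labelled wild type and those labelled sgNAT10. Members were all genes whose name begins with Ccl, Cxcl, Cx3cl or Xcl followed by a number and at most 1 letter from a to e, with transcripts summed per gene. The rule found 38 of 35310 genes, and 27 of the 38 reached 1 FPKM (fragments per kilobase of transcript, scaled to library depth) in at least 3 libraries of a table. In MCA205 cells 16 ligands reached that level, in TC1 cells 13 and in the tumours 26. The 11 ligands that reached it nowhere were Ccl1, Ccl17, Ccl19, Ccl21b, Ccl21d, Ccl24, Ccl27b, Ccl28, Cxcl13, Cxcl15 and Cxcl17. Of the 27, 13 reached it in every table.

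Chemokines are small secreted proteins that bind G protein-coupled receptors and steer the movement of leukocytes. They are classed by the spacing of their amino-terminal cysteines into the CXC, CC, CX3C and XC groups. Different ligands draw different cells, also within a group. Neutrophils follow CXC ligands of the Cxcl1 type through Cxcr2, and activated T and NK cells follow Cxcl9, Cxcl10 and Cxcl11 through Cxcr3. Monocytes follow Ccl2, Ccl7 and Ccl12 through Ccr2. Cxcl9, Cxcl10 and Cxcl11 are classical interferon-inducible genes, and Cxcl1, Cxcl2, Ccl2 and Ccl5 are classical targets of NF-kB. In tumours chemokines are made by the tumour cells and by the host cells that enter them.

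The study holds 18 mouse libraries in 6 groups of 3: wild type and sgNAT10 MCA205 cells in culture, wild type and sgNAT10 TC1 cells in culture, and subcutaneous tumours taken 8 days after implantation of wild type or sgNAT10 TC1 cells. The label sgNAT10 stands for a CRISPR guide against Nat10, the enzyme that acetylates cytidine in RNA, and the series title ties the loss of NAT10 in tumour cells to type I interferon responses. The labels call both lines fibrosarcoma and name no clone, culture or mouse strain, and the tumours hold host cells as well as TC1 cells. Libraries held 51661298 to 78501790 estimated counts. Nat10 itself was listed at 11.7 to 16.3 FPKM in all libraries, so its level does not check the genotype labels. The summed level of 9 fibroblast markers was 545 to 779 FPKM in MCA205 cells and 985 to 1526 FPKM in TC1 cells, while the lung markers Nkx2-1, Sftpc, Sftpb and Scgb1a1 stayed below 0.5 FPKM in all TC1 libraries. The whole list of 9 lung and epithelial markers, which holds keratins, Epcam and Cdh1 too, summed to 35.0 to 166 FPKM in wild type TC1 cells and 50.04 to 87.0 FPKM in sgNAT10.

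Several libraries stood apart before any comparison of genotypes. In TC1 cells, wild type 1 held far more of several ligand transcripts than wild type 2 and 3, so the TC1 ligand calls are given with and without it. In MCA205 cells, wild type 1 and sgNAT10 2 held 7.43 and 1.62 FPKM of 12 summed intestine markers against 172 to 475 FPKM in the other 4 libraries, and 0.660 and 0.766 FPKM of 11 summed liver markers against 29.7 to 75.9 FPKM. The scarce ligands Ccl3 and Ccl6 were likewise at or below 0.148 FPKM in these MCA205 libraries and at 1.83 to 3.79 FPKM in the others. The summed liver markers were at 722 to 1321 FPKM in all TC1 cell libraries. In the tumours they were at 1.40, 56.8 and 231 FPKM in wild type and at 528, 590 and 555 FPKM in sgNAT10, so they moved with genotype there, and their part in the tumour results was not tested.

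Promoters of the CXC ligands on chromosome 5 are shown because the results turn on Cxcl10 and Cxcl1 and on neighbours of theirs that behaved differently. Each is the run of 250 bases before the RefSeq start in GRCm38.p6, written 5′ to 3′ along the gene's own strand. Capitals mark matches to the interferon-stimulated response element (ISRE), searched as GAAA, any 2 bases and GAAA, and to the NF-kB consensus (kB), both searched on either strand. Cxcl10 lies at chr5:92348890-92349139 on the minus strand and Cxcl9 at chr5:92328080-92328329 on the minus strand. Cxcl1 lies at chr5:90890995-90891244, Cxcl2 at chr5:90903649-90903898 and Cxcl3 at chr5:90785851-90786100, all on the plus strand.
Cxcl10: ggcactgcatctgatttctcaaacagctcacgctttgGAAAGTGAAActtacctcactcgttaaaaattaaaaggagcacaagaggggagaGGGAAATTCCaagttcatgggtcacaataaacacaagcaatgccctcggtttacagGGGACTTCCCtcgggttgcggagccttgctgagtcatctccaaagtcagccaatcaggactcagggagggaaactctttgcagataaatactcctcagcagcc
Cxcl9: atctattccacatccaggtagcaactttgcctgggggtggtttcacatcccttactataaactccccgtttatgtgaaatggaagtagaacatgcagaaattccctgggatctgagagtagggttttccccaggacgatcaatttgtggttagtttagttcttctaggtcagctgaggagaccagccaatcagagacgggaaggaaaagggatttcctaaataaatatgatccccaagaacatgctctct
Cxcl1: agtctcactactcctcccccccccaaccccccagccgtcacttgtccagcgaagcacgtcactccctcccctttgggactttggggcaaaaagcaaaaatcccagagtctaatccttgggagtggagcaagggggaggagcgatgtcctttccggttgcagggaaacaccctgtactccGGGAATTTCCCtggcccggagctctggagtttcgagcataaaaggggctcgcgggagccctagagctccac
Cxcl2: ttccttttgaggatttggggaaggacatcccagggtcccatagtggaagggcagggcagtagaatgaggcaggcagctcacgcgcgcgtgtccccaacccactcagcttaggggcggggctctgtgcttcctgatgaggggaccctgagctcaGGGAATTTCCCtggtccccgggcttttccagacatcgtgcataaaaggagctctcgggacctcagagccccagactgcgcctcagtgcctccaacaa
Cxcl3: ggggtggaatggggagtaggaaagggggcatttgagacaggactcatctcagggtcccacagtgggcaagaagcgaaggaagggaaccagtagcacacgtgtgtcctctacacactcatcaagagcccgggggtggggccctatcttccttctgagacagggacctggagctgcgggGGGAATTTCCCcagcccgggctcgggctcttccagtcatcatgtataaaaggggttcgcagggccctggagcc
The Cxcl10 window held 1 ISRE beginning 213 bases before the start and 2 kB matches beginning 159 and 103 bases before it. The Cxcl9 window held neither. Cxcl1, Cxcl2 and Cxcl3 each carried the same kB stretch, which reads as a match on both strands and begins 71, 97 and 73 bases before their starts.

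Entries in the RefSeq promoter table were matched by symbol for 28 of the 38 ligands, in 34 windows of 300 bases that also hold the 50 bases after the start. The kB consensus was found in 7 of the 34 windows (20.6%), those of Ccl20, Ccl27a, Ccl9, Cxcl1, Cxcl10, Cxcl2 and Cxcl3, against 4.51% of all 32851 windows in the table. The ISRE was found in 3 windows (8.82%), of Ccl19, Cxcl10 and Cxcl14, against 3.44%. The interferon-gamma activated site, searched as TTCNNNGAA, was found in 2 windows (5.88%), of Ccl17 and Cxcl14, against 8.30%. Cxcl10 was the only ligand of these 28 with both an ISRE and a kB match in these windows. Ccl2, Ccl4, Ccl5, Ccl7, Ccl11, Ccl24, Cxcl5, Cxcl11, Cxcl16 and Cxcl17 had no entry and were not searched. A match describes letters and not binding.

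Ccl2, Cxcl10, Ccl7 and Ccl5 made up most of the ligand transcripts in the cell lines, and the pool was wider in the tumours. Summed over all 38 ligands, MCA205 wild type libraries held 388, 378 and 368 FPKM and sgNAT10 libraries held 1976, 2034.5 and 1928 FPKM. Ccl2, the main monocyte attractant, led in each wild type library with 44.9%, 41.7% and 42.7% of the sum, and Cxcl10 led in each sgNAT10 library with 37.6%, 37.5% and 38.9%. In TC1 cells the sums were 854, 164 and 331 FPKM in wild type and 630, 1390.0 and 1484 FPKM in sgNAT10, with Ccl2 first in all 6 libraries. The TC1 groups overlapped, because wild type 1 lay above sgNAT10 1. Tumours held 1591, 1260 and 1808.5 FPKM in wild type and 2423, 2199 and 2310 FPKM in sgNAT10, without overlap. Cxcl10 led in 5 of the 6 tumour libraries and Ccl2 in wild type 1. Levels of different tables are set side by side only as descriptions, because each table may carry its own normalisation.

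**Figure D1:**
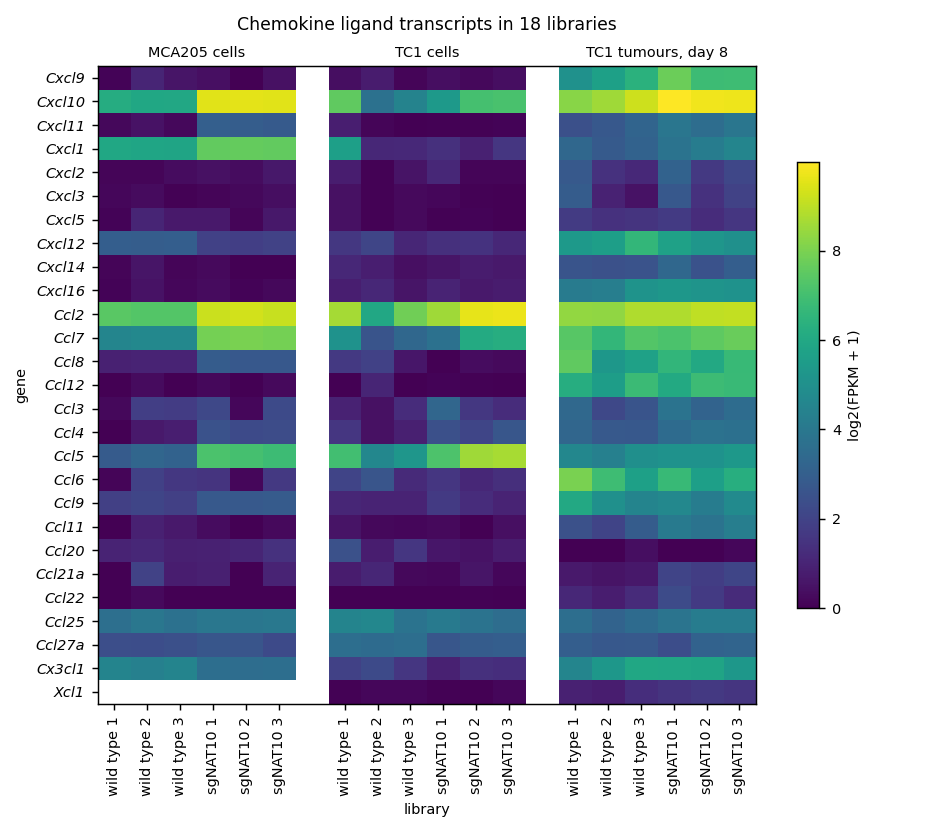
Colour gives log2(FPKM + 1) for each of the 27 ligands (rows) in each of the 18 libraries (columns), with wild type 1 to 3 left of sgNAT10 1 to 3 in each block and white where a ligand is not listed. Cxcl10 and Ccl2 are bright in all blocks, whereas Cxcl9 and Ccl12 are bright in the tumour block and at most 1.04 FPKM in the cell lines.

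**Figure D2:**
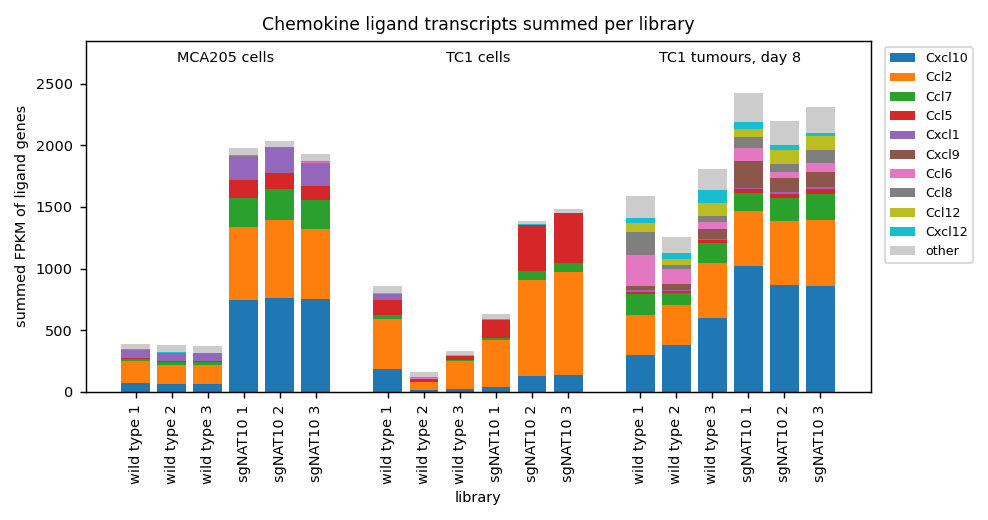
Bars stack the FPKM of the ligands in each library, with 10 chosen abundant ligands coloured and the rest in grey. MCA205 sgNAT10 bars reach 1928 to 2034.5 FPKM against 368 to 388 FPKM in wild type, and in TC1 cells wild type 1 stands above wild type 2 and 3.

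In MCA205 cells, sgNAT10 libraries held more Cxcl10, Cxcl11, Ccl5, Ccl7, Ccl8, Ccl2, Cxcl1 and Ccl9 and less Cxcl12, Cx3cl1 and Ccl17. These were 8 higher and 3 lower of 28 ligands tested with edgeR's quasi-likelihood test at an adjusted p under 0.05, the remaining 10 having too few counts or no entry. Among all genes tested in MCA205 cells 21.2% were called higher and 19.4% lower, against 28.6% and 10.7% of the ligands, and 40.6% were called in either direction. Of the genes at 1 FPKM in 3 MCA205 libraries, 30.2% had every sgNAT10 library above every wild type library and 31.1% below. The median log2 difference of the 28 ligands was 0.29, against -0.03 for all genes. Leaving out wild type 1 and sgNAT10 2 together kept these 11 calls and added Ccl4 as higher and Ccl11 and Ccl28 as lower.

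Of the interferon-inducible CXC ligands, which recruit T and NK cells through Cxcr3, Cxcl10 and Cxcl11 rose and Cxcl9 did not pass the test. Cxcl10 was at 72.2, 61.5 and 62.3 FPKM in wild type and at 743, 762 and 750 FPKM in sgNAT10. The log2 difference was 3.54 (SE 0.07, adjusted p = 4.7e-07). Cxcl11 was at 0.166, 0.414 and 0.170 FPKM in wild type and at 7.23, 6.72 and 6.02 FPKM in sgNAT10, a log2 difference of 5.24 (SE 0.42, adjusted p = 0.00012). All sgNAT10 libraries lay above all wild type libraries for both genes, and the spread within each group was small beside the difference. Cxcl9 was at 0.0630, 1.04 and 0.495 FPKM against 0.315, 0.0242 and 0.353 FPKM, with an adjusted p of 0.43, and its lowest values were in the pair of libraries poor in intestine markers.

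Ccl2 and Ccl7, monocyte attractants that act through Ccr2, were called higher, and so was Ccl8. Ccl12, another ligand of Ccr2, was not tested. Ccl7 showed the widest change, from 22.4, 24.5 and 24.3 FPKM to 240, 254 and 236 FPKM, a log2 difference of 3.36 (SE 0.05, adjusted p = 2.4e-07). Ccl2 started from a higher level, 174, 158 and 157 FPKM, and reached 591, 632 and 568 FPKM, a log2 difference of 1.89 (SE 0.06, adjusted p = 3.1e-06). Ccl8 went from 0.883, 0.986 and 0.979 FPKM to 6.53, 5.704 and 5.76 FPKM, a log2 difference of 2.63 (SE 0.22, adjusted p = 0.00015). None of these groups overlapped.

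Ccl5, which draws T cells, rose from 6.32, 8.75 and 7.81 FPKM to 143, 130.1 and 115 FPKM (log2 difference 4.08, SE 0.15, adjusted p = 4e-06). Ccl4, an inflammatory CC ligand, was at 0, 0.598 and 0.800 FPKM in wild type and at 4.73, 3.71 and 3.999 FPKM in sgNAT10. Its groups did not overlap, but its log2 difference of 3.16 (SE 1.10) had an adjusted p of 0.059. Without wild type 1, where Ccl4 was listed at 0, the log2 difference was 2.58 with an adjusted p of 0.0015. Ccl3, an inflammatory CC ligand encoded near Ccl4, was at 0.148, 2.59 and 2.39 FPKM against 3.50, 0.129 and 3.79 FPKM, and its groups overlapped.

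Among the neutrophil attractants, Cxcl1 was the one abundant member in MCA205 cells. It rose from 61.6, 57.9 and 56.0 FPKM to 189, 199 and 192 FPKM, a log2 difference of 1.77 (SE 0.05, adjusted p = 1.3e-06). Cxcl2 and Cxcl3, which carry the same kB stretch in their promoters, stayed below 1 FPKM in all MCA205 libraries and were not called. Ccl9, a ligand of Ccr1, rose from 2.68, 3.21 and 2.71 FPKM to 5.98, 5.90 and 6.33 FPKM (log2 difference 1.10, SE 0.10, adjusted p = 0.00017).

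The ligands that fell in MCA205 cells included Cxcl12, the stromal ligand of Cxcr4, and Cx3cl1, a membrane-anchored ligand of Cx3cr1. Cxcl12 was at 6.89, 6.61 and 6.99 FPKM in wild type and at 2.78, 2.59 and 2.90 FPKM in sgNAT10, a log2 difference of -1.35 (SE 0.08, adjusted p = 2.8e-05). Cx3cl1 was at 21.7, 19.7 and 21.8 FPKM against 11.3, 10.9 and 11.3 FPKM, a log2 difference of -0.85 (SE 0.06, adjusted p = 6.2e-05). Neither pair of groups overlapped. Ccl17 was listed at 0.915, 0.984 and 0.319 FPKM in wild type and at 0 in each sgNAT10 library, and its call was lost with the replicate block. Ccl25, Ccl27a and Ccl20 were listed at 11.4 to 14.8, 3.72 to 5.46 and 0.837 to 1.72 FPKM, with overlapping groups and adjusted p of 0.056, 0.41 and 0.45.

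**Figure D3:**
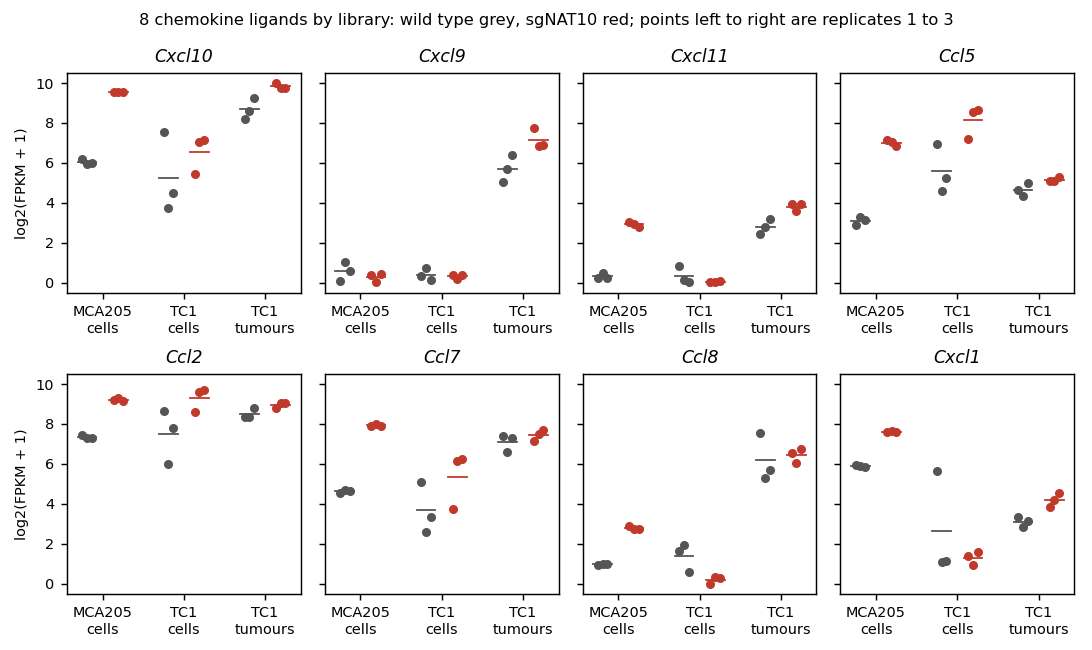
Each panel plots log2(FPKM + 1) of 1 ligand, with a point per library (wild type grey, sgNAT10 red, replicates 1 to 3 from left to right) and a bar at the group mean. In MCA205 cells 7 of the 8 ligands shown lie higher in every sgNAT10 library. In TC1 cells wild type 1 lies apart from wild type 2 and 3 for Cxcl10, Ccl5, Ccl7 and Cxcl1. For Ccl2 the TC1 wild type points are spread, with wild type 1 highest and wild type 2 lowest.

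In TC1 cells, Ccl4 and Ccl5 rose and Ccl27a, Cx3cl1, Ccl8 and Ccl20 fell with all libraries in the fit, and without wild type 1 the rises were Ccl5, Ccl4, Cxcl10, Ccl2 and Ccl7 and the only fall was Ccl27a. With all libraries these are 2 higher and 4 lower of 24 tested, or 8.33% and 16.7%, against 15.9% and 22.0% of all genes tested in TC1 cells and 37.9% in either direction. Groups without overlap were found for 27.8% (above) and 31.1% (below) of the genes at 1 FPKM in 3 TC1 libraries. Without wild type 1 they are 5 higher and 1 lower of 24, or 20.8% and 4.17%, against 16.3% and 13.5% of all genes. Without sgNAT10 1, Ccl5 was called higher and Ccl27a and Ccl8 lower of 27 tested, beside 4322 higher and 3801 lower of 19866 genes. The median log2 difference of the tested ligands was -0.46 with all libraries, beside -0.08 for all genes, and -0.14 without wild type 1, beside 0.05.

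Ccl5 was at 124, 23.4 and 37.6 FPKM in wild type TC1 cells and at 146, 376 and 405 FPKM in sgNAT10. The log2 difference was 2.29 (SE 0.67, adjusted p = 0.034) with all libraries and 3.39 (SE 0.52, adjusted p = 0.0068) without wild type 1. Every sgNAT10 library lay above every wild type library. Ccl4 was at 1.99, 0.366 and 0.819 FPKM against 4.37, 3.23 and 5.41 FPKM, with log2 differences of 1.97 (SE 0.58, adjusted p = 0.034) and, without wild type 1, 2.89 (SE 0.48, adjusted p = 0.0085). Each call was lost in 4 of the 6 fits that left out a library, with adjusted p of 0.0539 to 0.0886 for Ccl4 and 0.0657 to 0.0924 for Ccl5, and that of Ccl5 also with the replicate number as a block (adjusted p = 0.085).

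For Cxcl10, Ccl2 and Ccl7 the TC1 groups overlapped because wild type 1 lay above sgNAT10 1. Cxcl10 was at 187, 12.3 and 21.2 FPKM in wild type and at 42.0, 131 and 139 FPKM in sgNAT10, so that wild type 1 was the highest of all 6 libraries. Its log2 difference was 0.47 (SE 1.002, adjusted p = 0.76) with all libraries and 2.71 (SE 0.59, adjusted p = 0.021) without wild type 1. Ccl2 was at 402, 63.5 and 224 FPKM against 382, 778 and 830.1 FPKM, and its log2 difference went from 1.49 (adjusted p = 0.11) to 2.26 (adjusted p = 0.045). Ccl7 was at 33.6, 5.03 and 9.05 FPKM against 12.2, 68.9 and 74.0 FPKM, and its log2 difference went from 1.66 (adjusted p = 0.18) to 2.92 (adjusted p = 0.049). In each of the 3 genes sgNAT10 1 was the lowest of the sgNAT10 libraries. None of the 3 was called in any other fit that left out a library.

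Cxcl1 turned on the same library. It was at 48.5 FPKM in wild type 1, at 1.14 and 1.21 FPKM in wild type 2 and 3, and at 1.64, 0.891 and 1.99 FPKM in sgNAT10. The log2 difference was -3.15 (SE 1.42, adjusted p = 0.13) with all libraries and 0.56 (SE 0.44, adjusted p = 0.40) without wild type 1. At the levels of the other 5 libraries Cxcl1 was a minor ligand of TC1 cells, whereas in MCA205 cells it ranked among the 4 most abundant.

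Ccl27a, a ligand of Ccr10 known from skin, was lower in every sgNAT10 TC1 library: 5.39, 6.57 and 6.95 FPKM against 11.3, 10.4 and 11.4 FPKM. The log2 difference was -0.83 (SE 0.15, adjusted p = 0.0051), and -0.72 (adjusted p = 0.028) without wild type 1. Ccl27a overlaps Il11ra1 on the opposite strand, and the counting is not stated to use strand, so reads of the genes cannot be told apart. Il11ra1 differed by 0.00 on the log2 scale (adjusted p = 0.999). Cx3cl1 was at 2.78, 3.75 and 1.96 FPKM against 0.867, 1.61 and 1.45 FPKM, a log2 difference of -1.13 (SE 0.30, adjusted p = 0.024), and its call was lost in 5 of the 6 fits that left out a library, all but that without wild type 3, with adjusted p of 0.0621 to 0.0835. Ccl20, the ligand of Ccr6, was at 4.57, 0.744 and 1.97 FPKM against 0.526, 0.402 and 0.693 FPKM (adjusted p = 0.035), and Ccl8 at 2.17, 2.85 and 0.517 FPKM against 0, 0.272 and 0.207 FPKM (adjusted p = 0.033). Neither of the latter reached 1 FPKM in 3 TC1 libraries, and neither was called without wild type 1, with no filter or with the replicate block. The call of Ccl20 also ended without wild type 3, sgNAT10 1, sgNAT10 2 or sgNAT10 3, and that of Ccl8 without wild type 2, sgNAT10 2 or sgNAT10 3.

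The remaining TC1 ligands were not called by edgeR with all libraries or without wild type 1. Ccl25 was the most abundant of them, at 21.7, 23.9 and 13.0 FPKM against 16.1, 13.0 and 10.8 FPKM. Ccl3 was at 0.965, 0.362 and 1.39 FPKM against 8.90, 2.09 and 1.40 FPKM, without overlap but with an adjusted p of 0.081 by edgeR, and was called higher by DESeq2 (adjusted p = 0.011). Cxcl12, Ccl6 and Ccl9 were listed at 1.10 to 3.25, 1.16 to 5.22 and 0.994 to 2.26 FPKM, with overlapping groups.

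In the day 8 tumours, Cxcl9, Cxcl10, Cxcl11, Cxcl1, Ccl11 and Ccl21a were higher in sgNAT10, and so were Ccl21b and Ccl21d, which stayed under 1 FPKM. These were 8 of 33 ligands tested, or 24.2%, against 7.65% of all genes called higher. Ccl21a, Ccl21b and Ccl21d are near-identical copies, so that share may count the same signal more than once. The calls of Ccl21b and Ccl21d were lost with the replicate block, without wild type 2 and without any of the sgNAT10 libraries. No ligand was called lower by edgeR, against 9.72% of all genes, and none at an unadjusted p under 0.05 or by DESeq2 or limma either. In either direction 17.4% of all genes were called, and with library size alone as scaling the split of all genes moved from 1473 higher and 1870 lower to 1505 and 1223. Of the genes at 1 FPKM in 3 tumour libraries, 22.6% had every sgNAT10 library above every wild type library and 20.1% below. The median log2 difference of the tested ligands was 0.54, against 0.02 for all genes. In bulk tumours, fewer cells of a type and less RNA per cell cannot be told apart.

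Every member of the interferon-inducible CXC group was called in the tumours. Cxcl9 was at 32.6, 50.6 and 82.1 FPKM in wild type and at 213, 116 and 118 FPKM in sgNAT10, a log2 difference of 1.36 (SE 0.34, adjusted p = 0.035). Cxcl10 was at 297, 381 and 599 FPKM against 1017, 869 and 859 FPKM, a log2 difference of 1.04 (SE 0.22, adjusted p = 0.021). Cxcl11 was at 4.45, 5.82 and 8.27 FPKM against 14.3, 11.02 and 14.3 FPKM, a log2 difference of 1.23 (SE 0.27, adjusted p = 0.025). In all 3 genes the highest wild type library lay below the lowest sgNAT10 library. A transcript annotated as a polymorphic pseudogene took 40.9% to 85.8% of the Cxcl11 counts in the tumours. When single tumour libraries were left out, the log2 differences of Cxcl9, Cxcl10 and Cxcl11 ranged from 0.896 to 1.69. The calls were lost without wild type 2 or any of the sgNAT10 libraries, with adjusted p of 0.0672 to 0.114, and that of Cxcl9 also without wild type 1 (adjusted p = 0.056). With the replicate number as a block the adjusted p were 0.10 for Cxcl9, 0.066 for Cxcl10 and 0.060 for Cxcl11. The 7 dendritic cell markers summed to 7.01, 8.70 and 14.5 FPKM in wild type tumours and to 19.6, 21.8 and 17.999 FPKM in sgNAT10, without overlap. None of the 7 was called by edgeR, 3 had an unadjusted p under 0.05, all higher, 2 were called by DESeq2 and 2 by limma, and their part in the result was not tested.

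Cxcl10 and Cxcl11 overlap Art3 on the opposite strand. Art3 was higher in the sgNAT10 tumours, at 7.98, 7.81 and 5.80 FPKM against 1.34, 3.12 and 3.19 FPKM (log2 difference 1.59, adjusted p = 0.011). In MCA205 cells Art3 was at most 1.53 FPKM and was not called (adjusted p = 0.54), while Cxcl10 stood above 743 FPKM in each sgNAT10 library.

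Cxcl1 was at 9.23, 6.15 and 7.78 FPKM in wild type tumours and at 13.1, 17.5 and 22.5 FPKM in sgNAT10, a log2 difference of 0.94 (SE 0.26, adjusted p = 0.049). That call was lost in 5 of the 6 fits that left out a library, with adjusted p of 0.0695 to 0.155, with no filter (0.084) and with the replicate block (0.12), and held with the other size factors, library size alone, 1 CPM in a group, DESeq2 and limma. The other ligands of Cxcr2, Cxcl2, Cxcl3 and Cxcl5, were listed at 1.24 to 7.90, 0.409 to 6.50 and 1.40 to 2.30 FPKM with overlapping groups. Wild type 1 and sgNAT10 1 held the most Cxcl2 and Cxcl3, and these libraries also held the highest sums of 7 neutrophil markers, 93.1 and 46.6 FPKM against 6.197 to 25.7 FPKM in the other 4.

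Ccl11, the eosinophil attractant eotaxin, rose from 4.60, 3.095 and 6.47 FPKM to 16.1, 13.1 and 18.5 FPKM, a log2 difference of 1.65 (SE 0.29, adjusted p = 0.013). Ccl21a, the ligand of Ccr7 made by lymphatic endothelium and lymphoid stroma, rose from 0.598, 0.445 and 0.573 FPKM to 3.15, 2.52 and 3.27 FPKM, a log2 difference of 2.34 (SE 0.32, adjusted p = 0.007). The groups did not overlap in either gene. The Ccl21a call held in each fit that left out a library, and the Ccl11 call was lost without sgNAT10 1 (adjusted p = 0.054) or sgNAT10 3 (adjusted p = 0.054). Ccl21b and Ccl21d are near-identical copies of Ccl21a, so the division of reads among the copies is uncertain, and both were called with levels of at most 0.564 FPKM. All 7 blood endothelial markers tested were called higher in the sgNAT10 tumours by edgeR and DESeq2, and 5 by limma. Over all genes edgeR called 7.65% higher. The endothelial markers summed to 32.6 to 43.4 FPKM in wild type and 63.5 to 74.8 FPKM in sgNAT10. None of 4 lymphatic markers was called by edgeR, DESeq2 or limma, and 1 had an unadjusted p under 0.05. The lymphatic markers summed to 45.8 to 57.2 FPKM in wild type and 59.2 to 72.1 FPKM in sgNAT10, without overlap, most of it Pdpn. Prox1, which defines lymphatic endothelium, was below 0.5 FPKM in all tumour libraries, whereas Lyve1 and Flt4 each reached 0.5 FPKM in at least 1. The part of either cell type in the Ccl11 and Ccl21a differences was not tested.

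The abundant monocyte attractants Ccl2, Ccl7 and Ccl12 were not called in the tumours, and neither was Ccl8. Ccl2 was at 327, 322 and 446 FPKM against 451, 521 and 536 FPKM, without overlap, with a log2 difference of 0.36 (SE 0.15, adjusted p = 0.14). Ccl7 and Ccl12 were at 96.7 to 208 and 46.2 to 113 FPKM with overlapping groups. Ccl8 was at 187, 38.1 and 51.4 FPKM against 93.9, 64.3 and 106 FPKM, with a log2 difference of -0.26 (SE 0.62, adjusted p = 0.79). Without wild type 1 the Ccl8 difference was 0.95 (SE 0.24, adjusted p = 0.041). Wild type 1 also held the most Ccl6 and Ccl9, ligands of Ccr1, at 255 and 64.6 FPKM against 48.3 to 118 and 17.4 to 31.6 FPKM in the other libraries, and it held 123 FPKM of the platelet and monocyte chemokine gene Pf4 against 21.7 to 38.6 FPKM. The 10 macrophage markers summed to 1269 to 1791 FPKM in wild type and 1201 to 1370.3 FPKM in sgNAT10, with Mrc1 and Lyz2 called lower.

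Ccl5 was at 23.7, 19.3 and 30.5 FPKM in wild type tumours and at 33.1, 33.0 and 38.9 FPKM in sgNAT10, without overlap and with an adjusted p of 0.17. Ccl4 was at 8.90, 5.92 and 5.74 FPKM against 10.3, 12.6 and 11.9 FPKM, likewise without overlap (adjusted p = 0.17), and was called without wild type 1 (log2 difference 0.95, adjusted p = 0.026) and by limma (adjusted p = 0.030 and 0.035 with pseudocounts of 1 and 0.1). Ccl25, a ligand of Ccr9 known from thymus and gut, was at 11.1, 8.12 and 10.3 FPKM against 13.5, 17.6 and 17.5 FPKM with an adjusted p of 0.053, and passed with library size alone, the filter of 1 CPM, DESeq2 and limma. Ccl22 and Xcl1 were higher in every sgNAT10 library than in any wild type library, at 1.37 to 3.82 against 0.762 to 1.34 FPKM and at 1.84 to 2.12 against 0.744 to 1.49 FPKM, with adjusted p of 0.12 and 0.17 by edgeR, and Ccl22 was called by DESeq2 (adjusted p = 0.046). None of 10 T and NK cell markers was called by edgeR or limma, 1 was called by DESeq2 and 1 had an unadjusted p under 0.05. Their sums were 23.0, 23.4 and 54.1 FPKM in wild type and 47.7, 63.5 and 49.9 FPKM in sgNAT10.

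Cxcl12 and Cx3cl1, which fell in MCA205 cells, were not called in the tumours. Cxcl12 was at 39.8, 47.7 and 98.3 FPKM against 51.6, 36.7 and 31.4 FPKM, and Cx3cl1 at 22.4, 38.5 and 60.3 FPKM against 58.8, 55.4 and 38.0 FPKM. Both pairs of groups overlapped. Cxcl14 and Cxcl16 were at 4.50 to 9.23 and 16.7 to 38.2 FPKM, and Ccl3 and Ccl27a at 3.49 to 13.1 and 4.17 to 8.27 FPKM, all with overlapping groups.

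**Figure D4:**
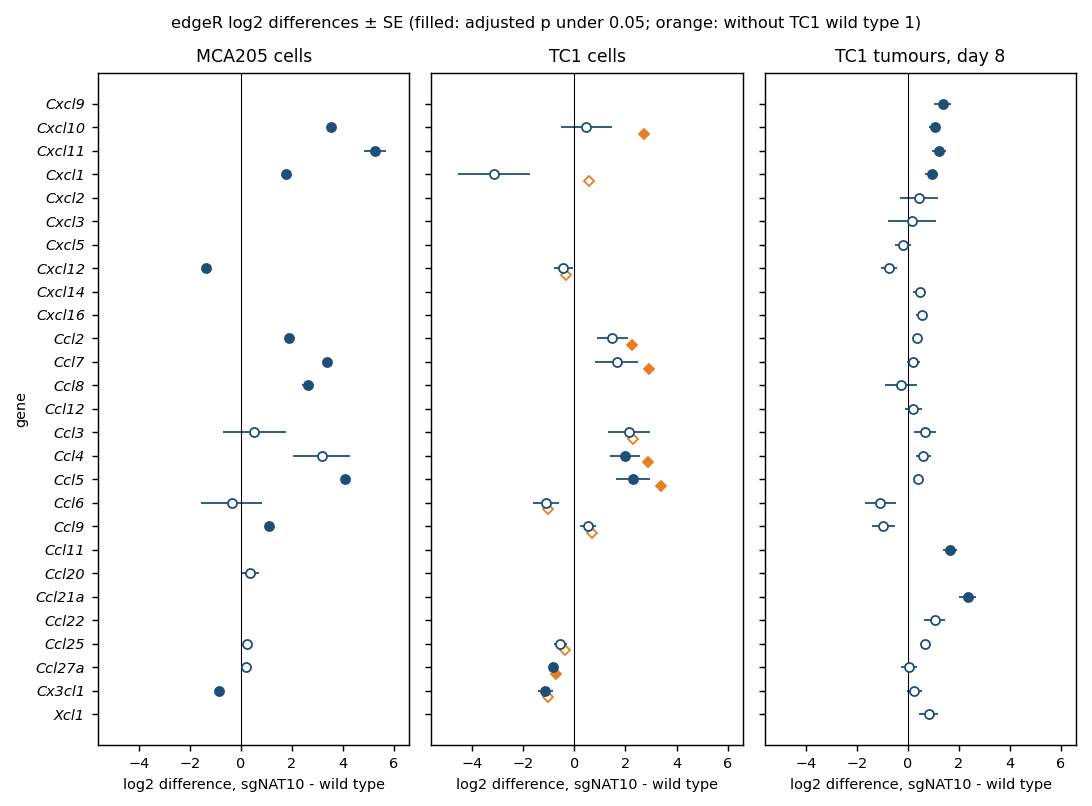
Points give the edgeR log2 difference, sgNAT10 minus wild type, with its SE as a bar, for each ligand that reached 1 FPKM in 3 libraries of that table, and filled points have an adjusted p under 0.05. Orange diamonds in the TC1 panel give the fit without wild type 1, where Cxcl10 moves from 0.47 to 2.71 and Cxcl1 from -3.15 to 0.56.

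Whether the sgNAT10 difference itself differed between MCA205 and TC1 cells was tested as an interaction over their 12 libraries. It was larger in MCA205 cells for Cxcl11, Ccl8, Cxcl1, Ccl20 and Ccl27a, 5 of 28 ligands tested or 17.9%, against 19.2% of all genes. None was called smaller by edgeR or DESeq2, 1 had an unadjusted p under 0.05, and 16.7% of all genes were called smaller and 36.0% in either direction. The difference of differences was 7.40 for Cxcl11 (SE 1.23, adjusted p = 0.00085) and 6.08 for Ccl8 (SE 1.119, adjusted p = 0.0016) on the log2 scale. Both ligands rose in MCA205 cells and were close to 0 in sgNAT10 TC1 cells, at most 0.0576 FPKM for Cxcl11 and 0.272 FPKM for Ccl8. Cxcl11 was scarce in wild type TC1 cells too, at 0.797, 0.0847 and 0.0238 FPKM. Its TC1 log2 difference without wild type 1 was -0.29 (SE 0.78). The value for Cxcl1 was 4.86 (SE 1.52, adjusted p = 0.029). For Ccl27a it was 0.99 (SE 0.23, adjusted p = 0.0058). Cxcl10, with 3.0005 (SE 1.16), had an adjusted p of 0.068, and Ccl2, Ccl5 and Ccl7 had adjusted p of 0.75, 0.11 and 0.21. Without TC1 wild type 1 the values were 5.57 for Cxcl11, 5.95 for Ccl8 and 1.28 for Cxcl1, all still called, whereas Ccl20 was no longer called (adjusted p = 0.072), and Cxcl10 was at 0.90 (adjusted p = 0.27). The Cxcl1 call was lost in 8 of the 12 fits that left out a library, namely each MCA205 wild type library, MCA205 sgNAT10 1 or 3 and each TC1 sgNAT10 library, with adjusted p of 0.0510 to 0.0719, and with the replicate block (0.15).

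The same test between TC1 tumours and TC1 cells called a larger difference in the tumours for Ccl21a, Cxcl11, Cx3cl1, Ccl25 and Ccl17, 5 of 33 or 15.2%, against 13.1% of all genes. No ligand was called smaller by edgeR, 1 was by DESeq2 and 2 had an unadjusted p under 0.05, against 15.1% of all genes called smaller and 28.2% in either direction. The difference of differences was 3.58 for Ccl21a (SE 0.90, adjusted p = 0.012) and 3.40 for Cxcl11 (SE 1.05, adjusted p = 0.033). For Cx3cl1 it was 1.31 (SE 0.44, adjusted p = 0.044) and for Ccl25 1.14 (SE 0.34, adjusted p = 0.028). In TC1 cells Cxcl11 stayed under 1 FPKM in all libraries, with its highest value, 0.797 FPKM, in wild type 1. With a library left out, the Cxcl11 call held only without tumour wild type 3 or TC1 wild type 2 or 3. That of Cx3cl1 held only without tumour wild type 3, tumour sgNAT10 3 or TC1 wild type 3. Both were lost with the replicate block, and that of Cx3cl1 also with no filter. The Ccl25 call was lost without TC1 wild type 1 or 2 or TC1 sgNAT10 2 or 3, and that of Ccl21a held throughout. Ccl17 reached 1 FPKM in 1 tumour library only. Without TC1 wild type 1, Ccl21a alone was called larger and Ccl4, Ccl5 and Ccl7 were called smaller. For Cxcl10 the value went from 0.51 (adjusted p = 0.78) to -1.63 (adjusted p = 0.078).

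The ligand genes lie in clusters, and neighbours were not all called alike. On chromosome 11 in mm10, Ccl2 (82035571 to 82037453), Ccl7 (82045712 to 82047525), Ccl11 (82057823 to 82062955), Ccl12 (82101845 to 82103400) and Ccl8 (82115185 to 82116799) follow each other. In MCA205 cells Ccl2, Ccl7 and Ccl8 rose from wild type levels of 163, 23.7 and 0.950 FPKM, whereas Ccl11 and Ccl12 between them did not reach 1 FPKM in 3 libraries. In the tumours Ccl11 was called and the abundant Ccl2, Ccl7, Ccl12 and Ccl8 were not. Farther along the chromosome, Ccl5 (83525778 to 83530518), Ccl9 (83572919 to 83578636), Ccl6 (83587882 to 83593087), Ccl3 (83647844 to 83649355) and Ccl4 (83662584 to 83664683) form a second block. There Ccl5 and Ccl9 rose in MCA205 cells while Ccl6, which lies next to Ccl9, had a log2 difference of -0.36 (SE 1.20, adjusted p = 0.85). With an SE that wide, whether Ccl6 differs from Ccl9 cannot be decided, and no test between genes was run.

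On chromosome 5, Cxcl9 (92321347 to 92328079), Cxcl10 (92346638 to 92348889) and Cxcl11 (92359544 to 92365485) follow each other on the minus strand. In MCA205 cells Cxcl10 and Cxcl11 rose and Cxcl9 was at most 1.04 FPKM, and in the tumours all 3 rose. In sgNAT10 TC1 cells Cxcl10 was at 42.0 to 139 FPKM while Cxcl9 and Cxcl11 stayed at or below 0.300 FPKM. In the neutrophil block, Cxcl1 (90891241 to 90893115) and Cxcl2 (90903871 to 90905938) are neighbours that share the kB stretch printed above. Cxcl1 rose to 194 ± 4.75 FPKM (SD, n = 3) in MCA205 cells, where Cxcl2 was at most 0.583 FPKM.

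**Figure D5:**
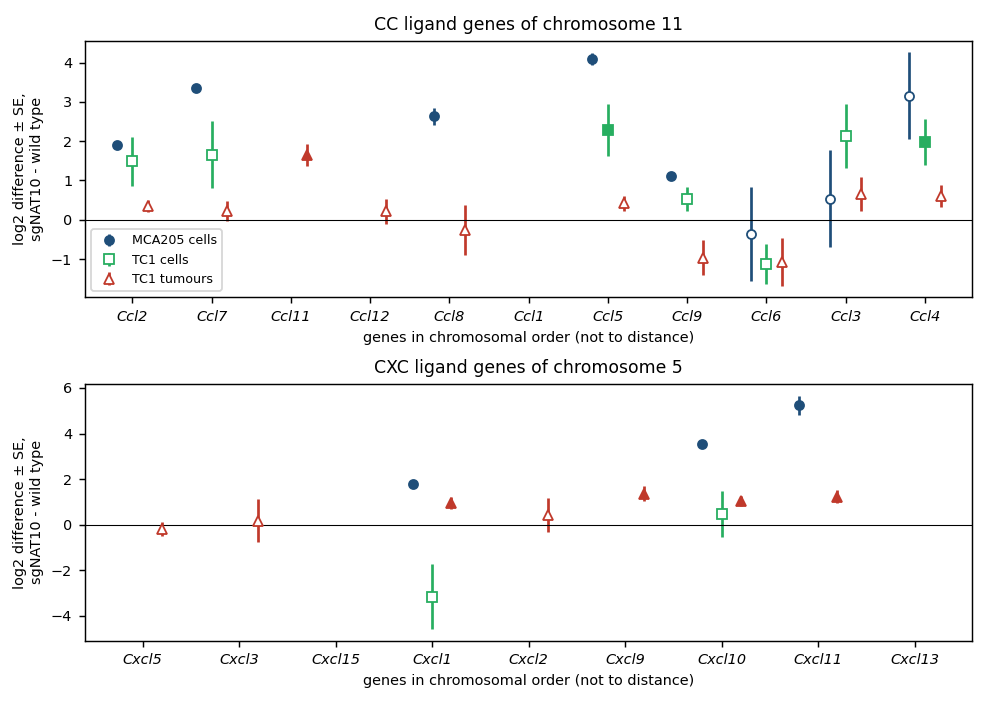
Points give the edgeR log2 difference with its SE for the CC ligands of chromosome 11 and the CXC ligands of chromosome 5 in chromosomal order, not to distance, by table, filled where the adjusted p is under 0.05 and left out under 1 FPKM in 3 libraries. Calls of adjacent ligands differ: Ccl9 was called higher in MCA205 cells, and Ccl6 beside it, with a wide SE, was not called.

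The receptors that read these ligands were scarce in the cell lines. The 18 conventional receptors summed to 1.22 to 2.25 FPKM in MCA205 cells, 2.24 to 4.0004 FPKM in TC1 cells and 51.6 to 101 FPKM in the tumours. In MCA205 cells 1 of 8 tested was called higher (Ccr7) and 1 lower (Ccr8), both under 1 FPKM. In TC1 cells Cx3cr1, the receptor of Cx3cl1, was the 1 of 8 called higher, from 0.389, 0.547 and 1.116 FPKM to 2.48, 1.65 and 1.45 FPKM, and without wild type 1 none of 10 receptors was called higher by edgeR. None of 15 was called in the tumours by edgeR, whereas 5 had an unadjusted p under 0.05, all higher, 4 were called by DESeq2 and 1 by limma. Over all genes edgeR called 21.2% higher and 19.4% lower in MCA205 cells. It called 15.9% higher in TC1 cells, or 16.3% without wild type 1. In the tumours 7.65% of all genes were called higher and 9.72% lower. Cxcr3, chosen after its values were seen as the receptor of Cxcl9, Cxcl10 and Cxcl11, was at 0.307 to 0.742 FPKM in wild type tumours and 0.644 to 0.902 FPKM in sgNAT10, with overlap.

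Atypical receptors bind chemokines without G protein signalling and clear or present them. Ackr3, which takes up Cxcl12 and Cxcl11, went in opposite directions in the lines: from 2.38, 2.47 and 2.70 FPKM to 4.99, 5.33 and 5.33 FPKM in MCA205 cells (log2 difference 1.06, adjusted p = 0.0001) and from 4.16, 4.26 and 3.68 FPKM to 0.229, 0.270 and 0.256 FPKM in TC1 cells (log2 difference -3.996, adjusted p = 1.7e-05). The interaction was 4.997 on the log2 scale (SE 0.15, adjusted p = 7.6e-09). In MCA205 cells the rise of Ackr3 ran beside the fall of Cxcl12 and the rise of Cxcl11. Ccrl2, which binds the chemoattractant chemerin, rose in MCA205 cells (log2 difference 2.67, adjusted p = 0.0077) and in the tumours (1.54, adjusted p = 0.015). In all, 2 of 4 tested atypical receptors were called higher in MCA205 cells, 1 of 4 lower in TC1 cells and 1 of 4 higher in the tumours, beside 21.2%, 22.0% and 7.65% of all genes. Ackr3 was also the 1 called lower in TC1 cells without wild type 1, of 5 tested.

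Transcription factors of the interferon response were called higher in each comparison. Of 8 listed, 7 were called higher in MCA205 cells, 4 in TC1 cells and 4 in the tumours, and none lower by edgeR, DESeq2 or limma or at an unadjusted p under 0.05. The shares of all genes called higher were 21.2%, 15.9% and 7.65%. The TC1 count was 4 without wild type 1 as well. Stat2, part of the complex that binds the ISRE, went from 9.31, 10.2 and 9.84 FPKM to 42.6, 44.5 and 44.4 FPKM in MCA205 cells (log2 difference 2.17, adjusted p = 2.4e-07). In TC1 cells Stat2 was at 14.5, 7.29 and 6.78 FPKM against 7.18, 34.0 and 36.4 FPKM, so wild type 1 was the highest of the wild type libraries and sgNAT10 1 the lowest of the sgNAT10 libraries, as for Cxcl10. Irf7, which amplifies interferon production, was also highest in wild type 1 among the wild type TC1 libraries and lowest in sgNAT10 1 among the sgNAT10 libraries, at 26.0, 7.77 and 5.34 FPKM against 37.6, 136 and 151 FPKM, but without overlap of the groups.

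The NF-kB genes moved in both directions. Of 12 tested, 6 were called higher and 2 lower in MCA205 cells, 3 higher and 5 lower in TC1 cells, and 2 and 2 in the tumours. Over all genes 21.2% and 19.4% were called higher and lower in MCA205 cells, 15.9% and 22.0% in TC1 cells and 7.65% and 9.72% in the tumours. Without TC1 wild type 1 the TC1 split was 4 higher, with Nfkbia added, and 4 lower. Nfkbia, the inhibitor that NF-kB itself induces, rose in MCA205 cells from 26.2, 25.4 and 27.2 FPKM to 45.0, 43.1 and 46.7 FPKM (log2 difference 0.78, adjusted p = 3.7e-05). In TC1 cells Nfkbia was at 48.3, 17.6 and 29.0 FPKM against 44.2, 51.2 and 53.9 FPKM, with the wild type 1 library again above wild type 2 and 3. Relb, a subunit, rose in MCA205 cells (log2 difference 0.43, adjusted p = 0.0018) and fell in TC1 cells (-1.40, adjusted p = 0.00071). Ikbkg, a regulatory subunit of the kinase that frees NF-kB, was called higher in all 3 comparisons, with log2 differences of 1.35, 1.008 and 0.47.

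Of the proteases that trim or shed chemokines, 3 of 6 tested were called higher in MCA205 cells, 2 of 6 higher and 1 lower in TC1 cells, and none of 7 in the tumours by edgeR, DESeq2 or limma or at an unadjusted p under 0.05. Over all genes 40.6%, 37.9% and 17.4% were called in either direction, and the TC1 counts were the same without wild type 1. Mmp2, which cleaves Cxcl12 and Ccl7, went from 30.3, 30.0 and 29.2 FPKM to 82.5, 85.2 and 83.0 FPKM in MCA205 cells and from 15.4, 14.4 and 14.95 FPKM to 0.752, 0.498 and 0.703 FPKM in TC1 cells. Adam17, which sheds Cx3cl1 from the membrane, was called higher in both lines, with log2 differences of 0.17 (adjusted p = 0.018) and 0.37 (adjusted p = 0.0035).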

How the data were processed

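RNA-seq of 18 mouse libraries was deposited as 3 tables, for MCA205 cells, TC1 cells and TC1 tumours. Each table gives, per the file headers, a count and an FPKM value per transcript and library. The counts were treated as estimated counts deposited by the authors. The FPKM values were likewise computed by the authors before deposit, and which program made them is not given in the sources read. Bowtie2, featureCounts, Trim Galore and FastQC, with the mm10 build, are listed per the submitters' processing notes, with no roles. Columns headed KO were taken as the libraries labelled sgNAT10, and 0 columns were left without a sample. No label says that replicates came from separate cultures, animals or clones, so p-values measure only the spread between these libraries. Libraries of a group differed by more than counting noise.

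Transcripts were summed per gene identifier, and 99.67% of identifiers matched GENCODE M21. Counts were rounded and tested with edgeR 4.0.16 in R 4.3.3 (TMM, filterByExpr, quasi-likelihood F test, Benjamini-Hochberg over all genes of a table, called at an adjusted p under 0.05), each table alone. SE values are the log2 difference divided by the square root of F. Differences between effects were interaction contrasts over 12 libraries. Alternatives were other size factors, library size alone, no filter, 1 CPM in a group, DESeq2 1.42.0, limma 3.58.1 on log2(FPKM + 1) and log2(FPKM + 0.1), a replicate block, each library left out, and the pair of MCA205 libraries left out. For simulated data, 2-fold and 4-fold changes were placed in a small set of genes with a mean above 1 CPM. The test recovered 70% of the 2-fold changes with 17374 genes tested for MCA205 cells, 60% with 18340 for TC1 cells and 42% with 18689 for tumours. For differences between effects it recovered 39% (MCA205 against TC1 cells) and 22% (tumours against TC1 cells). These rates do not cover scarcer genes or data in which many genes change. Depth was 51661298 to 78501790 counts per library.

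Ligands at 1 FPKM in 3 libraries of a table were named, and the 4 members of each further list with the smallest p could be named. Members and lists were chosen with earlier results of these data known. Promoters came from RefSeq (GRCm38.p6), matched by symbol. Protein sequences were not used here. Some items withheld for evaluation are not reported here.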

Additional observations from a re-analysis of the deposited data

Results flagged for a closer look

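The effect of sgNAT10 differed between MCA205 and TC1 cells, by edgeR's interaction test, for 5 ligands. The difference of log2 differences was 7.40 for Cxcl11 (adjusted p = 0.00085), 6.08 for Ccl8 (adjusted p = 0.0016), 4.86 for Cxcl1 (adjusted p = 0.029), 2.52 for Ccl20 (adjusted p = 0.027) and 0.99 for Ccl27a (adjusted p = 0.0058). Without the TC1 library wild type 1, where Cxcl1 was at 48.5 FPKM against 0.891 to 1.99 FPKM in the other TC1 libraries, the value for Cxcl1 was 1.28 (adjusted p = 0.020), and Ccl20 was no longer called (adjusted p = 0.072). The Cxcl1 call was also lost in 8 of the 12 fits that left out a library and with the replicate block. Cxcl11 stayed under 1 FPKM in all TC1 cell libraries of either genotype.

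Between TC1 tumours and TC1 cells the effect differed for Ccl21a by 3.58 (adjusted p = 0.012), for Cxcl11 by 3.40 (adjusted p = 0.033), for Cx3cl1 by 1.31 (adjusted p = 0.044) and for Ccl25 by 1.14 (adjusted p = 0.028). Without TC1 wild type 1 only Ccl21a of these kept its call. The Cxcl11 and Cx3cl1 calls were also lost with the replicate block and in most fits that left out a library.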

How the results depend on the processing

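The 10 ligands called in MCA205 cells at 1 FPKM in 3 libraries kept their direction and call in all 150 alternative values, while those called in TC1 cells lost the call in 16 of 56, those in tumours in 26 of 84, and the interactions in 15 of 84 and 25 of 68. Without the MCA205 pair 5 ligands were called lower. In TC1 cells the ligands called higher numbered 0 with no filter and 1 with the replicate block, and 0 to 5 with a library left out. Those called lower numbered 2 with no filter, 1 CPM in a group, either limma fit or the block, and 1 to 7 with a library left out. In tumours 5 were called higher with no filter and 2 with the block, and 1 (without sgNAT10 1) to 11 (without wild type 1) with a library left out, beside 0 to 1 called lower. For MCA205 against TC1 cells 3 to 7 were called larger and 0 to 1 smaller with a library left out, and 1 smaller with no filter or the block. For tumours against TC1 cells 8 were called larger and 1 smaller by DESeq2, 2 larger with the block, and 1 to 6 larger and 0 to 3 smaller with a library left out. Ccl8 in tumours turned to 0.26 and 0.27 (limma, pseudocounts 1 and 0.1) and 0.18 (block), and Cxcl10 between tumours and TC1 cells to -0.64 (block). With a library left out, log2 differences changed sign for Ccl3 (-0.0061 to 1.06) and Ccl6 (-0.92 to 0.25) in MCA205 cells and Cxcl1 (-3.63 to 0.56) in TC1 cells. In tumours they did for Ccl12 (-0.059 to 0.47), Ccl27a (-0.13 to 0.31), Ccl7 (-0.010 to 0.45), Ccl8 (-0.66 to 0.95), Cxcl2 (-0.33 to 1.58), Cxcl3 (-0.46 to 2.06) and Cxcl5 (-0.31 to 0.058). Between the lines they did for Ccl2 (-0.28 to 0.81) and Cx3cl1 (-0.0020 to 0.40), and between tumours and TC1 cells for Cxcl10 (-1.63 to 1.011). The cause was not tested. All tumour genes called numbered 360 higher and 476 lower with the block, 870 and 1282 with no filter and 2406 and 2684 by DESeq2, and library size alone moved their median log2 difference from 0.02 to 0.13. Same-numbered libraries did not deviate together (correlations -0.515, -0.564 and 0.266 in MCA205 cells, -0.074 to 0.011 in TC1 cells, -0.073 to 0.009 in tumours), so the numbers were not taken as pairs.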

Other observations

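Pf4 is a chemokine ligand whose name falls outside the rule. It is stored in platelets and also made by monocytes. Pf4 was at 123, 38.6 and 21.7 FPKM in wild type tumours and at 29.2, 23.8 and 28.02 FPKM in sgNAT10 (adjusted p = 0.17). The platelet markers, which include Pf4 and Ppbp, summed to 128 FPKM in wild type 1 and to 26.0 to 45.9 FPKM in the others. Wild type 1 was also the tumour library with the most Ccl6, Ccl8 and Ccl9. Pf4 and Ppbp alone summed to 127 FPKM there, so this sum does not measure platelets apart from Pf4. The platelet markers Gp9 and Gp1bb stayed below 0.5 FPKM in all tumour libraries.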
